A study of Homo sapiens with 8 samples.

Results

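Regulators of apoptosis were examined in the Ago2-immunoprecipitated and total RNA of L1236 cells with and without a miR-155 sponge. The 10 genes were BCL2, BCL2L1, MCL1, BCL2L11, PMAIP1, BBC3, BAX, BAK1, XIAP and CFLAR. They were chosen by name, with earlier results of these data known, and every probe whose accession belonged to one of them was taken. They had 19 of the 41000 probes on the array. All 19 were among the 22468 probes kept after filtering, and each was well above background in all 8 channels. L1236 is a cell line of Hodgkin lymphoma origin in which miR-155 is naturally abundant. Both cell populations carried the retroviral pMSCV-PIG vector and had been sorted for GFP. In EV cells the vector was empty, and in sponge cells it held a miR-155 sponge, a transcript with repeated miR-155 sites that competes with natural targets. The study regards the capture of miR-155 by the sponge in these cells as possibly incomplete, and the arrays do not measure free miR-155. From each population total RNA (T) and the RNA precipitated with an antibody against Ago2 (IP) were hybridised, so there were 4 RNA samples, 1 per group, each labelled once with Cy3 and once with Cy5.

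Apoptosis through the mitochondria is set by the balance within the BCL2 family. BCL2, BCL2L1 and MCL1 restrain the pore-forming effectors BAX and BAK1, and the BH3-only proteins BIM (encoded by BCL2L11), NOXA (PMAIP1) and PUMA (BBC3) neutralise these guardians when a cell is stressed. Further downstream XIAP blocks active caspases, and CFLAR (c-FLIP) keeps the initiator caspase of the death receptors from being activated. Hodgkin and Reed-Sternberg cells are known for NF-kB-driven expression of several survival genes of this kind. Ago2 holds a microRNA together with the transcript it pairs with, so the ratio of IP to T of a transcript (IP/T) measures how strongly it came down with Ago2.

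MicroRNAs pair with transcripts mainly through the seed, bases 2 to 8 from the 5′ end. The microRNA that the sponge binds is shown first, and the others are those commonly named in textbooks as regulators of 3 of the genes. miR-15a and miR-16 are linked to BCL2, members of the miR-17-92 cluster to BCL2L11, and miR-29b to MCL1. Capitals mark the seed, and sequences and positions are from RefSeq, GRCh38.p14.
miR-155-5p, chr21:25573983-25574006, plus strand: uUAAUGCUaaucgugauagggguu
miR-15a-5p, chr13:50049167-50049188, minus strand: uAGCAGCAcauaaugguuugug
miR-16-5p, chr13:50049027-50049048, minus strand, with a second copy at chr3:160404754-160404775, plus strand: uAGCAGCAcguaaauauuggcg
miR-17-5p, chr13:91350618-91350640, plus strand: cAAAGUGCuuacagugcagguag
miR-20a-5p, chr13:91351072-91351094, plus strand: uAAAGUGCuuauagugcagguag
miR-19b-3p, chr13:91351245-91351267, plus strand, with a second copy at chrX:134169683-134169705, minus strand: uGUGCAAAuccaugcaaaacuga
miR-92a-3p, chr13:91351361-91351382, plus strand, with a second copy at chrX:134169544-134169565, minus strand: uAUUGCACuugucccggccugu
miR-29b-3p, chr7:130877467-130877489, minus strand, with a second copy at chr1:207802450-207802472, minus strand: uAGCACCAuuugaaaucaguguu
miR-15a and miR-16 share the seed AGCAGCA, and miR-17 and miR-20a share AAAGUGC. The seed of miR-155, UAAUGCU, is none of these. Levels of the microRNAs and the position of their sites in the transcripts were not analysed here, so IP/T does not tell which microRNA a transcript came down with.

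Since each group is a single RNA sample, differences have no replicate check and no test across samples was made. Values are log2 quantile-normalised signals or differences between them. The error (±) is the SD over the 2 dye orientations for IP/T and its change, and over the 2 dyes for changes in T or IP. It covers only part of the spread from labelling and hybridisation, and neither the culture nor the precipitation. The 2 orientations can give nearly the same value where single dyes do not. The change in IP/T of the MCL1 probe A_24_P336754 was -0.16 ± 0.01, but -0.03 within Cy5 and -0.29 within Cy3. An IgG precipitate was not analysed here. The share of spots well above background was 54.1% in sponge T in Cy5 and 61.0% to 65.7% in the other channels. All 9 listed markers of Hodgkin cells, such as TNFRSF8 (CD30) and CCL17, were detected in T of both populations. Of 6 B lineage markers 4 were detected in EV and 3 in sponge cells, with CD22 and MS4A1 (CD20) not detected in either, and 3 of 6 T cell markers (CD3E, CD2 and CD8A) and 2 of 5 myeloid markers (CD14 and CSF1R) were detected in both.

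Most probes of these genes were enriched with Ago2. In EV cells 11 of the 19 probes (57.9%), of 6 genes, were enriched at least 2-fold in IP over T, against 17.5% of all kept probes. These were all 3 probes of MCL1, all 4 of BCL2L11, the probes of PMAIP1, BAK1 and XIAP, and 1 of 3 of BBC3. Another 2 probes (10.5%), one of BBC3 and one of BAX, had an IP/T of 0.5 or less, against 19% of all kept probes. The median log2 IP/T was 1.60 ± 0.01 over the 19 probes and -0.16 over all kept probes. Probes of one gene are not independent, and the comparison describes these arrays only. In sponge cells the same 11 probes were at or above 2, against 17.5% of all, the same 2 were at or below 0.5, against 17.8%, and the median was 1.45 ± 0.01. Where the background was corrected by normexp before quantile normalisation, the EV median was 1.27, and all kept probes moved to -0.05.

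**Figure D1:**
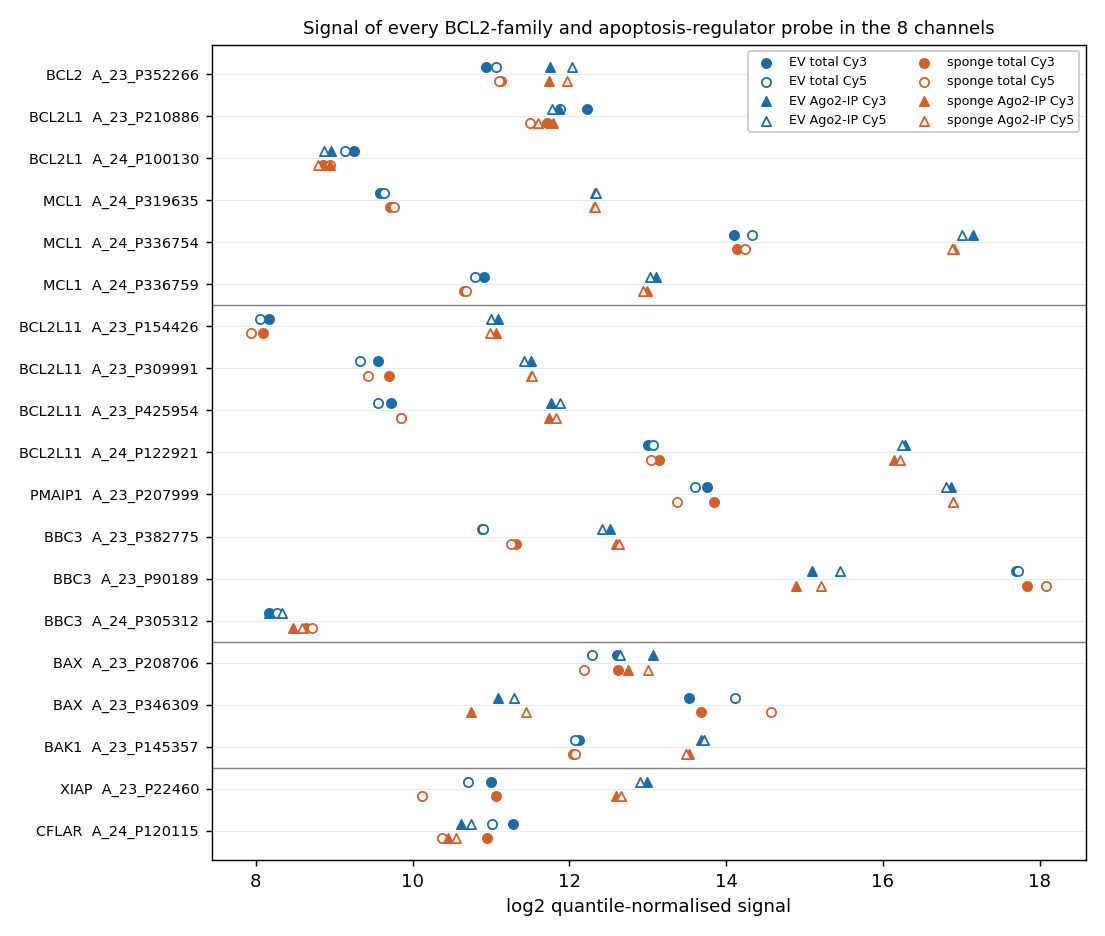
The log2 quantile-normalised signal of each of the 19 probes is plotted in the 8 channels (circles for total RNA, triangles for Ago2-IP, filled for Cy3, open for Cy5, blue for EV and orange for sponge cells), and lines separate anti-apoptotic, BH3-only, effector and caspase inhibitor genes. Triangles lie to the right of circles for MCL1, BCL2L11, PMAIP1, BAK1 and XIAP, and far to the left for 1 probe of BBC3 and 1 of BAX. In EV cells they also lie to the left, by less, for CFLAR and both BCL2L1 probes.

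Among the guardians, MCL1 was strongly enriched with Ago2, BCL2 weakly and BCL2L1 not. MCL1 is a short-lived protein on which many lymphoid cells depend. For its probe A_24_P319635, EV cells gave 9.59 (Cy3) and 9.64 (Cy5) in T and 12.33 and 12.34 in IP. Sponge cells gave 9.71 and 9.77 in T and 12.32 and 12.33 in IP. The T and IP channels were far apart and each was nearly the same in both dyes. IP/T was thus 6.62-fold in EV cells (log2 2.73 ± 0.04) and 5.98-fold in sponge cells (2.58 ± 0.05). With normexp background correction it was lower, 3.83-fold to 3.98-fold in EV and 3.55-fold to 3.70-fold in sponge cells. The probes A_24_P336754 and A_24_P336759 had log2 IP/T of 2.86 ± 0.07 and 2.21 ± 0.13 in EV cells and 2.70 ± 0.06 and 2.30 ± 0.03 in sponge cells. In EV cells all 3 probes stood at or above the percentile 95.4 of all kept probes.

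BCL2, the founding member of the family, was measured by A_23_P352266. T was 10.93 (Cy3) and 11.06 (Cy5) in EV and 11.13 and 11.10 in sponge cells. IP was 11.76 and 12.04 in EV and 11.74 and 11.98 in sponge cells. IP was above T in every channel, by less than for MCL1. The enrichment was 1.87-fold in EV cells (log2 0.90 ± 0.29) and 1.67-fold in sponge cells (0.74 ± 0.14), just under the 2-fold limit, and in EV cells the array with IP in Cy5 alone gave 1.11 and the other 0.69.

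BCL2L1 gives rise to a long, protective form (Bcl-xL) and a short, death-promoting form (Bcl-xS). The probe with the accession of the long form (A_23_P210886) measured 12.22 (Cy3) and 11.88 (Cy5) in T and 11.87 and 11.78 in IP of EV cells. In sponge cells it measured 11.71 and 11.50 in T and 11.79 and 11.61 in IP. T of EV cells was the highest of the 4 RNA samples and IP was close to it. The log2 IP/T was -0.23 ± 0.30 in EV and 0.09 ± 0.28 in sponge cells. The probe with the accession of the short form (A_24_P100130) gave -0.28 ± 0.15 in EV and -0.04 ± 0.04 in sponge cells, so BCL2L1 was at about the level of the array's median in both. The positions of the probes in the transcripts were not analysed here, and neither probe was taken to measure one form alone.

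The probes with the highest IP/T belonged to the BH3-only genes BCL2L11 and PMAIP1. BIM, the product of BCL2L11, binds every guardian and is a main killer of B cells deprived of survival signals. Its probe A_24_P122921 gave 13.00 (Cy3) and 13.07 (Cy5) in T and 16.29 and 16.24 in IP of EV cells. Sponge cells gave 13.15 and 13.04 in T and 16.14 and 16.22 in IP. The fractions did not overlap in either population. IP/T was 9.39-fold in EV cells (log2 3.23 ± 0.01) and 8.49-fold in sponge cells (3.09 ± 0.02). Over the other 3 probes it ran from 2.02 ± 0.24 (A_23_P309991) to 2.93 ± 0.14 (A_23_P154426) in EV cells and from 1.94 ± 0.06 (A_23_P425954) to 3.01 ± 0.16 (A_23_P154426) in sponge cells. The direction was common to the 4 probes, and the highest was 1.21 above the lowest in EV cells. With normexp background correction A_24_P122921 was at 3.16 to 3.24 in EV cells, and the other 3 were lower, at 1.36 to 1.63 with loess and Aquantile and at 1.13 to 1.52 with quantile normalisation. In sponge cells the other 3 were at 1.15 to 1.34 and at 1.15 to 1.55.

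PMAIP1 encodes NOXA, which binds MCL1 and promotes its degradation. T was 13.76 (Cy3) and 13.61 (Cy5) in EV and 13.85 and 13.37 in sponge cells. IP was 16.87 and 16.81 in EV and 16.89 and 16.90 in sponge cells. The IP values lay within 0.1 of each other across populations and dyes, and T was lowest in the Cy5 channel of sponge cells. IP/T was 8.91-fold in EV (log2 3.16 ± 0.15) and 9.72-fold in sponge cells (3.28 ± 0.33), at the percentile 98.6 of all kept probes in EV cells.

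The 3 probes of BBC3, all assigned to the same accession, did not give one answer. BBC3 encodes PUMA, a p53-induced BH3-only protein. The probe A_23_P382775 measured 10.89 (Cy3) and 10.91 (Cy5) in T and 12.52 and 12.42 in IP of EV cells, an IP/T of 2.97-fold (log2 1.57 ± 0.06). The probe A_23_P90189 measured 17.70 and 17.73 in T and 15.10 and 15.45 in IP, a ratio 5.43-fold below 1 (-2.44 ± 0.27). The probe A_24_P305312 measured 8.17 and 8.27 in T and 8.17 and 8.33 in IP (0.03 ± 0.19). Enrichment, depletion and no difference thus came from 1 gene, each with a dye error far below the gap between probes. Sponge cells repeated the order, with 1.33 ± 0.02, -2.90 ± 0.40 and -0.15 ± 0.14. The range of 4.01 in EV cells was at the percentile 99.9 of the 3457 genes with at least 2 kept probes, whose median range was 0.38. Only 23 of those genes (0.67%) held one probe at 2 or more and another at 0.5 or less. Direction and size of IP/T for BBC3 therefore hold per probe and not for the gene.

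The effectors BAX and BAK1, which form the pores in the outer mitochondrial membrane, differed from each other. BAK1 (A_23_P145357) measured 12.13 (Cy3) and 12.07 (Cy5) in T and 13.68 and 13.72 in IP of EV cells, and 12.04 and 12.07 in T and 13.53 and 13.49 in IP of sponge cells. IP exceeded T in both populations with little spread between dyes. The ratio was 3.04-fold in EV (log2 1.60 ± 0.01) and 2.73-fold in sponge cells (1.45 ± 0.01).

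BAX was read by 2 probes assigned to different transcript accessions. A_23_P208706 measured 12.61 (Cy3) and 12.29 (Cy5) in T and 13.07 and 12.65 in IP of EV cells, and 12.62 and 12.18 in T and 12.75 and 13.00 in IP of sponge cells. A_23_P346309 measured 13.53 and 14.12 in T and 11.09 and 11.29 in IP of EV cells, and 13.68 and 14.57 in T and 10.74 and 11.45 in IP of sponge cells. The first was slightly higher in IP and the second clearly higher in T. Their log2 IP/T was 0.41 ± 0.52 and -2.63 ± 0.56 in EV cells and 0.48 ± 0.13 and -3.03 ± 1.14 in sponge cells. The dyes differed by up to 0.90 for A_23_P346309, and the gap between the probes was 3.04 in EV cells, at the percentile 99.3 of genes with several kept probes.

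**Figure D2:**
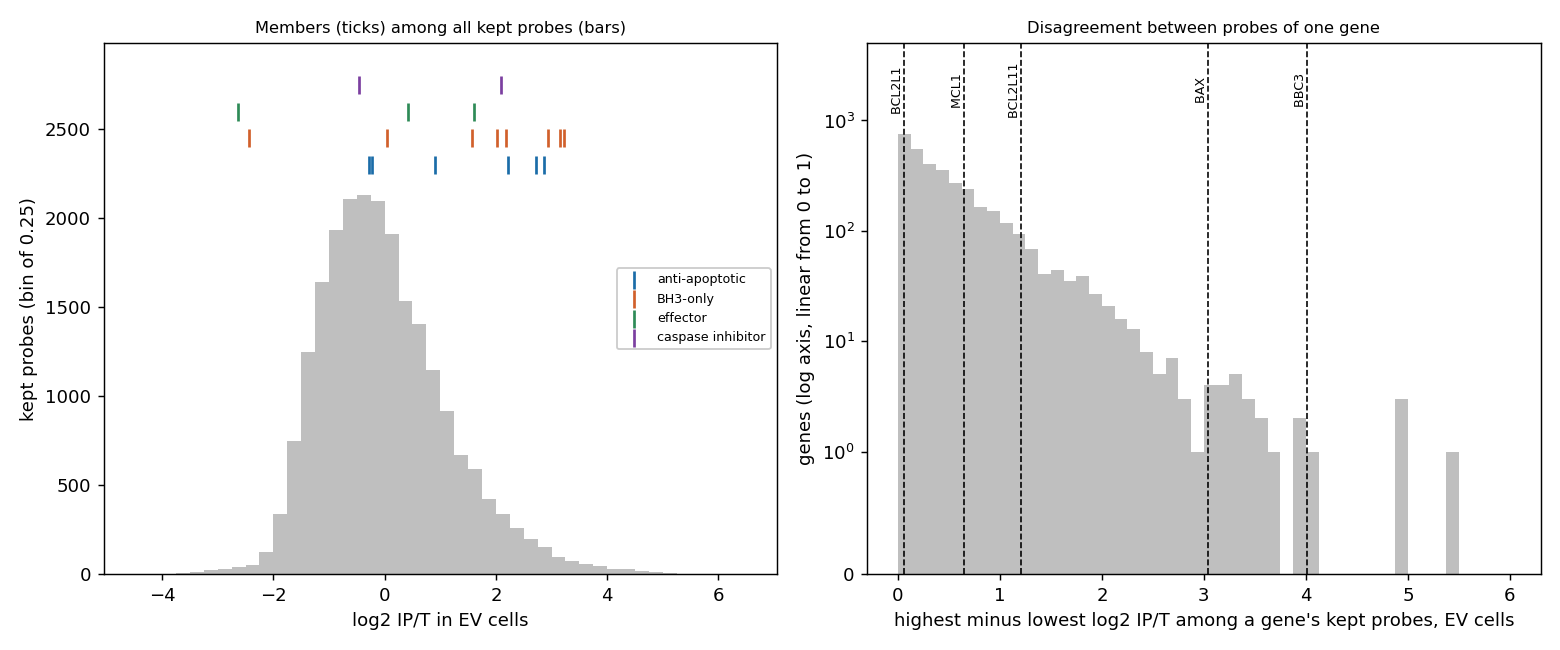
The left panel places the log2 IP/T of the 19 probes in EV cells (ticks, coloured by role) above the histogram of all 22468 kept probes, and the right panel is a histogram of the highest minus the lowest log2 IP/T among the kept probes of each of 3457 genes, on a log axis, with dashed lines for 5 genes. Most ticks lie right of the histogram's peak, and BBC3 (4.01) and BAX (3.04) lie far out in the right tail where BCL2L1 (0.06) and MCL1 (0.65) do not.

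The caspase-side inhibitors XIAP and CFLAR also parted. XIAP (A_23_P22460) measured 11.00 (Cy3) and 10.71 (Cy5) in T and 12.99 and 12.90 in IP of EV cells. In sponge cells T was 11.06 and 10.12 and IP was 12.60 and 12.66. IP was above T in all channels, and the dyes disagreed by 0.93 in T of sponge cells, the widest gap of any of the 19 probes. IP/T was 4.26-fold in EV (log2 2.09 ± 0.27) and 4.11-fold in sponge cells (2.04 ± 0.62).

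CFLAR (A_24_P120115) measured 11.28 (Cy3) and 11.02 (Cy5) in T and 10.62 and 10.74 in IP of EV cells. In sponge cells T was 10.95 and 10.38 and IP was 10.45 and 10.55. EV cells had more CFLAR in T than in IP in both dyes, and in sponge cells the order depended on the dye. IP/T was 1.38-fold below 1 in EV cells (log2 -0.47 ± 0.09) and -0.17 ± 0.33 on the log2 scale in sponge cells.

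**Figure D3:**
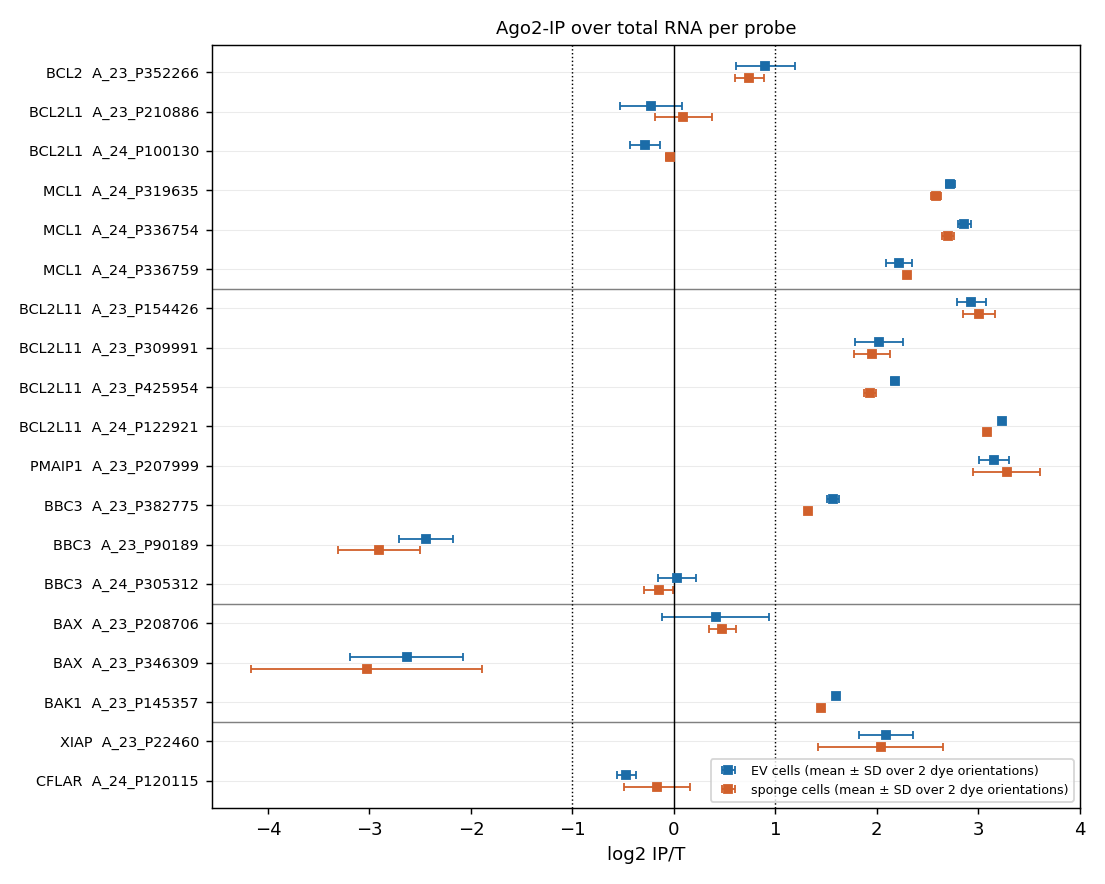
The log2 ratio of Ago2-IP to total RNA (x axis) is plotted for the 19 probes in EV (blue) and sponge cells (orange) as the mean ± SD over 2 dye orientations, with dotted lines at 2-fold enrichment and depletion. The same 11 probes lie right of the upper line and the same 2 left of the lower line in both populations.

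Between EV and sponge cells no probe of these genes changed 2-fold, but some stood near the ends of the array. No probe of the 19 changed 2-fold from EV to sponge cells in T (0.151% of all kept probes higher and 0.258% lower), in IP (0.0846% and 0.0668%) or in IP/T (0.174% and 0.138%). These shares are so small that the lack of such calls says little about the 19 probes. Among all kept probes, the change in T was at the percentile 2.7 for CFLAR and 3.4 for A_23_P210886 of BCL2L1. It was at 95.5 for A_23_P382775 and 97.0 for A_24_P305312 of BBC3, and the other members lay between. The change in IP/T is the change in IP minus the change in T, and A_23_P90189 of BBC3 was at the percentile 2.7 for it. IP/T was lower in sponge cells in both dye orientations for 10 of the 19 probes (52.6%, against 28.8% of all kept probes) and higher in 5 (26.3%, against 35.1%). The median change was -0.14 ± 0.01 over the 19 probes and 0.02 over all kept probes. With the Cy5 labellings alone the members' median was -0.005, so its size rests on the Cy3 labellings. At 1.25-fold or more in both orientations, 1 probe was lower (5.26%, A_23_P90189 of BBC3, against 2.32% of all, and 0 with scaling to the 75th percentile) and 0 were higher (against 4.29%).

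In T, with changes given per dye as sponge minus EV signal, BBC3 was higher and BCL2L1 and CFLAR lower in sponge cells in both dyes. In these bulk samples fewer expressing cells and less RNA per cell cannot be told apart. Of the 19 probes 8 (42.1%) were higher in both dyes, against 28.7% of all kept probes, and 5 (26.3%) were lower, against 33.4% (3 under either normexp setting), with a median change of -0.02 ± 0.08. All 3 probes of BBC3 were higher, by 0.43 (Cy3) and 0.35 (Cy5) for A_23_P382775, by 0.47 and 0.45 for A_24_P305312 and by 0.14 and 0.35 for A_23_P90189. The direction was thus shared by probes that disagreed on IP/T. The means were 0.39 ± 0.05, 0.46 ± 0.01 and 0.24 ± 0.15, or 1.31-fold, 1.38-fold and 1.18-fold. The first 2 were the only members at least 1.25-fold higher in both dyes (10.5%, against 2.9% of all kept probes). Under both normexp settings all 3 probes were still higher in both dyes, but neither call held (0 members, against 0.316% to 0.338% of all kept probes), with mean changes of 0.24 to 0.30 for A_23_P382775 and 0.20 for A_24_P305312.

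For BCL2L1 the changes in T were -0.51 (Cy3) and -0.38 (Cy5) with A_23_P210886 and -0.39 and -0.19 with A_24_P100130, means of -0.45 ± 0.09 and -0.29 ± 0.14. CFLAR changed by -0.33 and -0.64, a mean of -0.48 ± 0.22. All 3 probes were lower in sponge cells. The BCL2L1 probe A_23_P210886 and the CFLAR probe were the members at least 1.25-fold lower in both dyes (10.5%, against 3.09% of all kept probes). Under both normexp settings all 3 were still lower in both dyes, but neither call held (0 members, against 0.185% to 0.211%), and the CFLAR call also ended with scaling to the 75th percentile. Mean changes under normexp were -0.36 to -0.32 for A_23_P210886, -0.13 to -0.12 for A_24_P100130 and -0.30 for CFLAR. IP changed less for them, by -0.13 ± 0.07 and -0.04 ± 0.04 for BCL2L1 and by -0.18 ± 0.02 for CFLAR. Their IP/T was accordingly higher in sponge cells, by 0.32 ± 0.02 and 0.25 ± 0.11 for BCL2L1 and by 0.30 ± 0.24 for CFLAR. The larger CFLAR change came from Cy5, where T of sponge cells was the channel with the fewest spots well above background. The part of that channel in the result was not tested.

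XIAP had the widest gap between dyes in that channel. Its change in T was 0.06 in Cy3 and -0.59 in Cy5, so that the mean of -0.26 ± 0.46 has no direction. In IP it was lower in both dyes, with -0.39 and -0.24 (-0.32 ± 0.11), the most negative change in IP among the 19 probes. The PMAIP1 change in T also differed in sign between dyes, with 0.09 and -0.23. Both BAX probes had opposite signs in IP, with -0.32 and 0.35 for A_23_P208706 and -0.35 and 0.16 for A_23_P346309. For these, no direction is given.

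In IP, 13 of the 19 probes (68.4%), of 8 genes, were lower in sponge cells in both dyes, against 35.7% of all kept probes, and 3 (15.8%) were higher, against 37.9%. Under normexp the number lower was 9 of 19 (against 33.9%) with quantile normalisation and 11 of 18 (against 36.5%) with loess and Aquantile. The sizes were small. The median change was -0.04 ± 0.02 over the members and 0.01 over all kept probes, and at 1.25-fold in both dyes 0 members were lower (against 2.9%) and 0 higher (against 3.08%). After XIAP, BAK1 changed by -0.19 ± 0.06, and MCL1 by -0.02 ± 0.001, -0.18 ± 0.09 and -0.10 ± 0.01 with its 3 probes. All 3 MCL1 probes pointed the same way, although under normexp the sign of the first, A_24_P319635, turned. The probes higher in IP were that of PMAIP1 (0.05 ± 0.04) and 2 of BBC3 (0.14 ± 0.09 for A_23_P382775 and 0.28 ± 0.03 for A_24_P305312).

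IP/T of the strongly enriched genes was close in both populations. For BCL2L11, the changes in IP/T were between -0.24 ± 0.09 (A_23_P425954) and 0.08 ± 0.01 (A_23_P154426), lower in sponge cells in both orientations with 3 probes and higher with 1. Of these 3, A_23_P425954 was lower within either dye, by -0.33 (Cy5) and -0.15 (Cy3). Within Cy5, A_24_P122921 (0.006) and A_23_P309991 (-0.005) hardly changed, against -0.30 and -0.13 within Cy3. For MCL1 they were -0.14 ± 0.003, -0.16 ± 0.01 and 0.08 ± 0.10. PMAIP1 changed by 0.13 ± 0.18. The probes of BCL2L11 and of MCL1 thus did not share a direction, although the mean changes of all 4 BCL2L11 probes were below 0 under normexp with loess and Aquantile (-0.31 to -0.14), and those of all 3 MCL1 probes under both normexp settings (-0.25 to -0.03). All 3 probes of BBC3 were lower here and under both normexp settings, with -0.24 ± 0.04, -0.46 ± 0.14 and -0.18 ± 0.04, and BAK1 changed by -0.15 ± 0.005 and BCL2 by -0.16 ± 0.15.

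**Figure D4:**
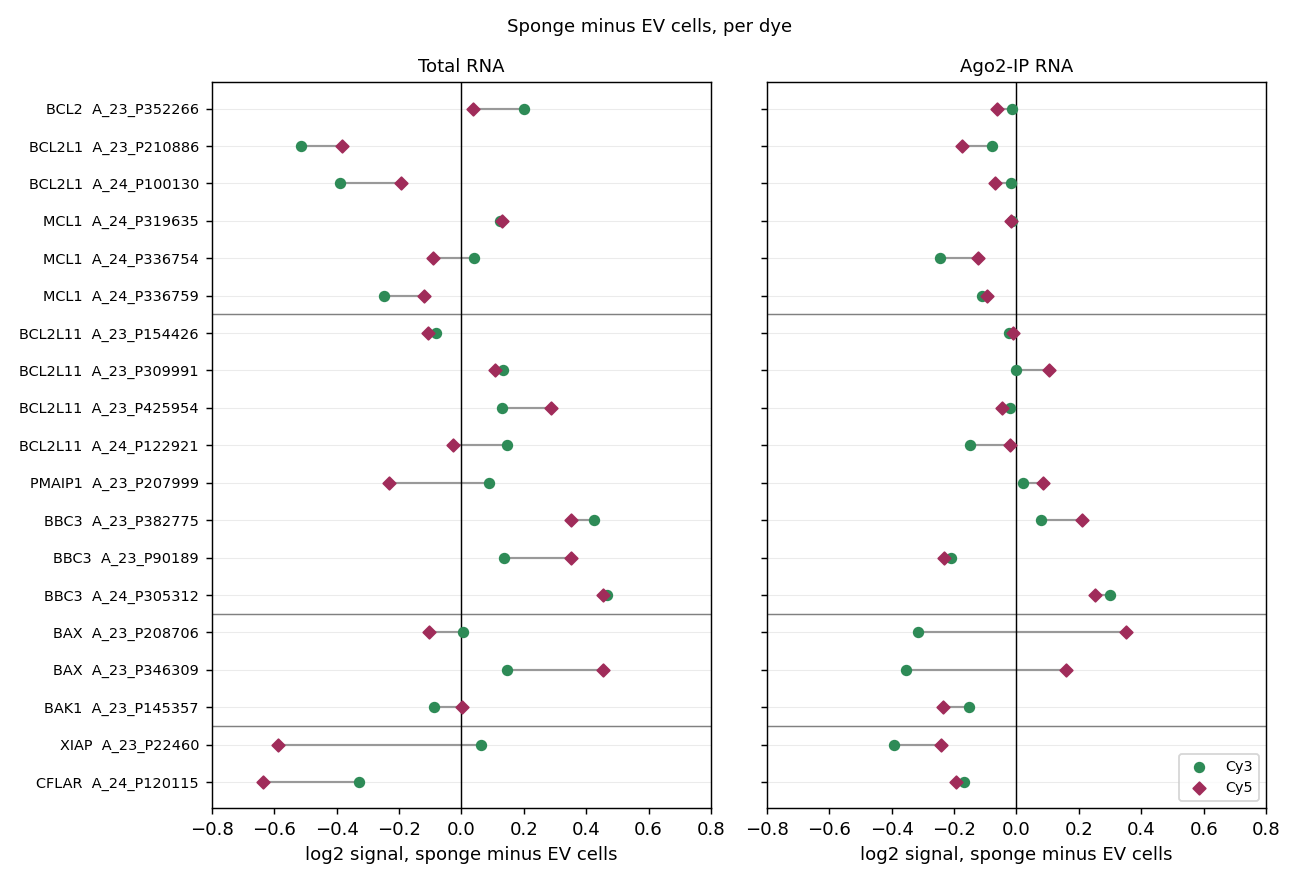
The log2 difference sponge minus EV cells (x axis) is plotted for the 19 probes in total RNA (left) and Ago2-IP RNA (right), with a circle for Cy3, a diamond for Cy5 and a line joining them. In total RNA the 3 BBC3 probes lie right of 0 and both BCL2L1 probes and CFLAR left of 0 in both dyes, whereas XIAP in total RNA and BAX in IP cross 0.

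The wider apoptosis machinery was read from a list of 46 further genes, of which 45 had a matched probe and 41 a kept one, taken as 1 probe per gene. Of the 41 genes, 11 (26.8%) were enriched 2-fold or more in IP of EV cells and 7 (17.1%) were at an IP/T of 0.5 or less, against 17.5% and 19% of all kept probes. The median log2 IP/T was 0.10 ± 0.19, against 1.60 for the 19 probes of the 10 genes and -0.16 for all kept probes. The value of 1.60 takes every probe of a gene. Over all kept probes of the list the median was also 0.10. The highest values were those of BIRC3 (3.32 ± 0.01), an NF-kB-induced inhibitor of apoptosis, the mitochondrial BNIP3 (2.16 ± 0.19), BCL2L12 (2.08 ± 0.16), the death receptor FAS (2.02 ± 0.07) and the anti-apoptotic BCL2L2 (2.02 ± 0.15). The lowest were those of the BH3-only HRK (-2.85 ± 0.15), the effector relative BOK (-2.77 ± 0.20), the mitochondrial nuclease ENDOG (-1.57 ± 0.11), the BH3-only BAD (-1.56 ± 0.0002) and BIRC7 (-1.49 ± 0.08). Within single dyes BAD was at -1.64 (Cy5) and -1.49 (Cy3), further apart than its error. BIRC7 was well above background in 1 of its 2 IP channels of EV cells. The BH3-only HRK and BAD were thus among the lowest, and the guardian BCL2L2 among the highest. Other BH3-only genes of the list were not low: BMF was at 1.96 ± 0.02, and BIK (0.10 ± 0.13) and BID (-0.69 ± 0.17) lay between.

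None of the 41 genes changed 2-fold in T, IP or IP/T from EV to sponge cells. The median changes were 0.02 ± 0.02 in T, 0.04 ± 0.02 in IP and 0.02 ± 0.01 in IP/T. The largest changes are named among the 40 genes well above background in all channels. BIRC7, left out by this rule, had larger rises than those named. They were 0.42 ± 0.18 in T, 0.83 ± 0.03 in IP and 0.41 ± 0.14 in IP/T. In T the highest changes of the 40 genes were those of BNIP3 (0.40 ± 0.09), the NF-kB target BCL2A1 (0.23 ± 0.08) and survivin, BIRC5 (0.23 ± 0.09). The lowest were those of the XIAP antagonist XAF1 (-0.44 ± 0.10), cytochrome c, CYCS (-0.29 ± 0.12), and BIRC2 (-0.24 ± 0.13). In IP they were BCL2A1 (0.42 ± 0.09), AIFM1 (0.36 ± 0.06) and BNIP3 (0.34 ± 0.03) and, on the low side, NAIP (-0.61 ± 0.11), XAF1 (-0.28 ± 0.03) and the TRAIL receptor TNFRSF10B (-0.24 ± 0.04). At 1.25-fold in both dyes this left BNIP3 higher and XAF1 lower in T (2.44% each, against 2.9% and 3.09% of all kept probes), BCL2A1 and BIRC7 higher in IP (4.88%, against 3.08%) and NAIP lower in IP (2.44%, against 2.9%). In IP/T the ends were AIFM1 (0.26 ± 0.22), HTRA2 (0.24 ± 0.001) and CASP6 (0.23 ± 0.04), and NAIP (-0.37 ± 0.09), BIRC3 (-0.29 ± 0.05) and PEA15 (-0.28 ± 0.03). These shares were near those of all kept probes.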

How the data were processed

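The deposited scanner files hold spot intensity values that the authors extracted with Agilent Feature Extraction (10.5.1.1 per the labels, 10.7.3.1 per the file headers), which subtracts background and corrects for dye. Normalised log2 values of 22282 probes, deposited by the authors as a series table, include all 19 member probes and served as an alternative. Here, control and outlier spots were left out, spots of a probe averaged, and log2 processed signals quantile normalised over 8 channels (limma 3.58.1, R 4.3.3). Following the study's methods, probes were kept if well above background in at least 4 channels (25825 of 41000) and within 2-fold between dyes in each RNA sample (22468), and dyes were averaged. No spot was saturated. The number of arrays limits the precision.

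Accessions were named through RefSeq (GRCh38.p14), for names only; 15621 kept probes (69.5%) received a symbol. Members and lists were chosen with earlier results of these data known, and the 1.25-fold call after seeing values. All member probes are reported; pathway genes (1 probe each, of highest mean signal) were named if among the 5 highest or lowest IP/T in EV cells or, when well above background in all channels, the 3 largest changes each way. Alternatives were normexp background correction (offset 50), with loess and Aquantile or with quantile normalisation, on median spot signals, scaling to the 75th percentile, the authors' values, other filters, single dye orientations and single dyes. Scripts were tested on simulated data.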

Additional observations from a re-analysis of the deposited data

Results flagged for a closer look

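For 4 probes the change from EV to sponge cells had one sign in total RNA and the other in Ago2-IP RNA, in both dyes. The change in IP minus the change in T was -0.16 for BCL2 (A_23_P352266), -0.14 for MCL1 (A_24_P319635), -0.24 for BCL2L11 (A_23_P425954) and -0.46 for BBC3 (A_23_P90189). T was higher and IP lower in sponge cells in each case, by 0.12 and -0.04, 0.13 and -0.02, 0.21 and -0.03, and 0.24 and -0.22 respectively. The other 2 MCL1 probes, the other 3 of BCL2L11 and the other 2 of BBC3 did not show opposite signs in both dyes. Under normexp the signs were no longer opposite for MCL1, where IP changed by 0.044 with loess and Aquantile and by 0.029 with quantile normalisation, and for BCL2L11 with quantile normalisation, where IP changed by 0.022. The difference between the fractions was not tested, since each group holds 1 RNA sample.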

How the results depend on the processing

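No 2-fold call turned direction under any alternative. The members' median change in T had another sign under 4 of 12 alternatives, and the calls of 1.25-fold in T all ended under both normexp settings. The members kept were 17 to 19, with 10 to 12 enriched in EV and 10 to 11 in sponge cells; XIAP was lost under normexp with loess and Aquantile, and XIAP and A_23_P346309 of BAX with the dye filter at 1.5-fold. Under normexp with loess and Aquantile the members' medians were 1.38 (IP/T in EV cells), 1.19 (IP/T in sponge cells), -0.16 (change in IP/T), 0.069 (change in T) and -0.078 (change in IP), and that of the pathway genes' change in IP/T was -0.016; the median IP/T of all probes in EV cells moved from -0.16 to 0.0005, and members lay 1.37 above it in place of 1.76. Under normexp with quantile normalisation they were 1.27, 1.17 and -0.092 for IP/T in EV cells, in sponge cells and its change, and -0.0019 for the pathway change. Scaling to the 75th percentile gave 1.42 in sponge cells. Arrays with IP in Cy3 alone gave -0.12 for the change in IP/T and -0.079 for the change in IP, and arrays with IP in Cy5 alone 0.089 for the change in T and 0.036 for the pathway change. The pathway change was 0.041 with no dye filter and 0.0057 over all kept probes of the list. With one dye left out, the medians ran from 1.62 to 1.65 (EV), 1.42 to 1.48 (sponge), -0.15 to -0.0050 (change in IP/T), -0.026 to 0.089 (change in T), -0.079 to -0.047 (change in IP) and 0.0007 to 0.094 (pathway change). Of the single-probe values, 158 moved by more than their dye spread and 967 did not, counted over all alternatives. The other filters left the values unchanged, and a single dye orientation always lies within the dye spread, so these could not move. Under normexp with loess and Aquantile 49 moved and 41 did not. Under normexp with quantile normalisation 46 moved and 49 did not. No paired analysis was possible because each group holds 1 RNA sample and no result comes from a test.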
